A study of Mus musculus with 24 samples.

Results

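Hepatic bile acid and organic anion transporters were examined in liver RNA-Seq of control and lipodystrophic mice. They are 10 genes listed by name as uptake and export carriers, of the 23972 genes in the count table. Slc10a1, Slco1a1, Slco1a4, Slco1b2, and Slco2b1 encode uptake carriers. Abcb11, Abcb4, and Abcc2 encode exporters of the canalicular membrane, and Abcc3 and Abcc4 encode exporters of the basolateral membrane. All 10 were found in the table and tested, with no filter on low values. Control mice were Lmna fl/fl without Adipoq-Cre, and Lmna ADKO mice were Lmna fl/fl with Adipoq-Cre, which deletes Lmna in adipocytes but not in hepatocytes. All mice were female, were young adults at the start, were housed at standard temperature, and had been fed a high-fat diet for about a month before injection. They received vehicle or an adeno-associated virus that expresses FGF21, and livers were taken some weeks later. There were 7 livers of vehicle-treated controls, 3 of FGF21-treated controls, 6 of vehicle-treated Lmna ADKO mice, and 8 of FGF21-treated Lmna ADKO mice, each from its own numbered animal, 24 in all. In the labels the treated groups are marked as a rescue, and the study's methods give that treatment as FGF21. Counts on Fgf21 did not set these groups apart, with means of 4.01 CPM in vehicle-treated controls, 4.78 CPM in FGF21-treated controls, 7.99 CPM in vehicle-treated Lmna ADKO livers, and 5.36 CPM in FGF21-treated Lmna ADKO livers. The study's paper, which measured the protein in plasma at this temperature, describes an increase after the virus that was larger in Lmna ADKO mice than in controls. CPM are counts per 1000000 after scaling of library sizes by edgeR's TMM method.

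Bile acids return to the liver in portal blood and are taken up across the basolateral membrane of hepatocytes, mainly by the sodium-dependent carrier NTCP (Slc10a1). Carriers of the OATP family (Slco genes) take up unconjugated bile acids, bilirubin, hormones, and many drugs without sodium. The bile salt export pump BSEP (Abcb11) then secretes bile acids into the canaliculus, the phospholipid floppase MDR2 (Abcb4) supplies the phosphatidylcholine of bile, and MRP2 (Abcc2) exports conjugated bilirubin and glutathione conjugates. MRP3 (Abcc3) and MRP4 (Abcc4) move conjugates and bile acids back into sinusoidal blood and are known as an overflow route in cholestasis. Nuclear receptors, among them FXR (Nr1h4), CAR (Nr1i3), and PXR (Nr1i2), and the stress factor NRF2 (Nfe2l2) are known to control several of these genes.

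Libraries held between 19863304 and 21510054 counted reads, so that 3 counts corresponded to 0.139 to 0.151 CPM before TMM scaling. Values are from bulk liver, in which fewer cells of a type and less RNA per cell cannot be told apart. In 3 libraries (control vehicle 3, control FGF21 3, and ADKO FGF21 7), log2 CPM relative to the median of the genotype fell with exonic gene length, with slopes of -0.15, -0.29, and -0.33 per log2 of length against -0.11 to 0.13 in the others. Lmna itself was detected in every library, at 18.6 ± 2.47 CPM (SD) in 7 vehicle-treated control livers and 26.7 ± 2.57 CPM in 6 Lmna ADKO livers given vehicle, which checks no label because the deletion is in adipocytes. The hepatocyte markers were detected, 7 of 7 in each group, with summed levels between 69435 and 142061 CPM.

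The promoters of Slc10a1, Abcb11, and Abcc4 are shown because these are the transporters whose mRNA differed with genotype. Each window is the 250 bases before the gene's most upstream start in RefSeq on GRCm38.p6. It is written 5′ to 3′ on the gene's strand, with motif matches in capitals. The window of Slc10a1 is chr12:80968706-80968955 (minus strand), and its capitals mark a match to TATAAA, read on the opposite strand, from -128 to -123. The window of Abcb11 is chr2:69342617-69342866 (minus strand), and its capitals mark the nuclear receptor half-site AGGTCA, on the opposite strand, from -56 to -51. The window of Abcc4 is chr14:118706220-118706469 (minus strand), and its capitals mark the core of the antioxidant response element, TGACNNNGC, on the opposite strand, from -25 to -17. Slc10a1 and Abcc4 each have a further RefSeq start downstream, whose window is not shown. Before that start, Slc10a1 has AGGTCA from -87 to -82, and Abcc4 has TGACNNNGC from -23 to -15.
Slc10a1: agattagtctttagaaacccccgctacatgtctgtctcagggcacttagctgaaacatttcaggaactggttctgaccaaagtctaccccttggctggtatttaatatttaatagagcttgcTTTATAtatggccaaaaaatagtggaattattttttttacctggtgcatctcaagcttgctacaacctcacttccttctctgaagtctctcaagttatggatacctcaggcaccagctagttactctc
Abcb11: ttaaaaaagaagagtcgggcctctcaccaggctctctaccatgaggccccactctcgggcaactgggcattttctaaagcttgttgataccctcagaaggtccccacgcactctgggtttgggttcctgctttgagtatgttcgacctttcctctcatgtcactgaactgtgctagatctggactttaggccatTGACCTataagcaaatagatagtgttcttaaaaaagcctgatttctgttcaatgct
Abcc4: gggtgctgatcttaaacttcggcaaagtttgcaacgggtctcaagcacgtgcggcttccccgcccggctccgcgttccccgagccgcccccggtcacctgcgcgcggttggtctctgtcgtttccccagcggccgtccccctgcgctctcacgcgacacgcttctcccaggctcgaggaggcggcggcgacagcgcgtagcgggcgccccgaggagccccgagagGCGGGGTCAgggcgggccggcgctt
On either strand, AGGTCA occurs in 13.8% of 27025 RefSeq promoter windows of this length, TGACNNNGC in 10.1%, and TATAAA in 12.97%. CCAAT (34.5% of windows) was also searched and has no match in the 3 windows shown. Neither does the inverted repeat of AGGTCA with 1 base between, which only 2 of the 27025 windows hold. Of the 10 transporters, 9 matched an entry of the promoter table.

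Levels differed widely among the transporters. Per kilobase of exon, the mean in vehicle-treated controls was 302 CPM for Slc10a1, 137 for Slco1b2 (OATP1B2, a carrier of bilirubin and bile acids), and 88.1 for Abcb11. Abcc3 followed at 48.3 CPM per kilobase, Slco2b1 at 38.2, Abcb4 at 29.5, Abcc2 at 29.3, and Slco1a4 at 16.4. Abcc4 (0.638 CPM per kilobase) and Slco1a1 (0.203 CPM per kilobase) were lowest, and only Slco1a1 had libraries with 3 counts or fewer. Length was that of all annotated exons of a gene merged, from 2199 bases for Slc10a1 to 9383 for Abcb4. The order depends on this length. In plain CPM, the means in vehicle-treated controls were 663 for Slc10a1 and 675 for Slco1b2. The comparisons that follow in this paragraph are per kilobase. Slc10a1 lay above Slco1b2 in 7 of 7 control libraries with ranges that did not overlap. Slco1b2 lay above Abcb11 in 7 of 7, although their ranges across libraries overlapped. Neighbours among Abcc3, Slco2b1, Abcb4, and Abcc2 overlapped in range, and Abcb4 exceeded Abcc2 in only 4 of 7 libraries. Slc10a1, Slco1b2, Abcb11, and Abcc3 held the 4 highest places in all 4 groups, in this order, and Slco1a4, Abcc4, and Slco1a1 the 3 lowest. In vehicle-treated Lmna ADKO livers, the ranges of Slc10a1 and Slco1b2 overlapped, with means of 184 and 140 CPM per kilobase, and Slc10a1 was the higher in 6 of 6 libraries. Slco1a1 and Slco1a4 are close paralogs that lie near each other on chromosome 6, and how the counting split shared reads is not stated.

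**Figure D1:**
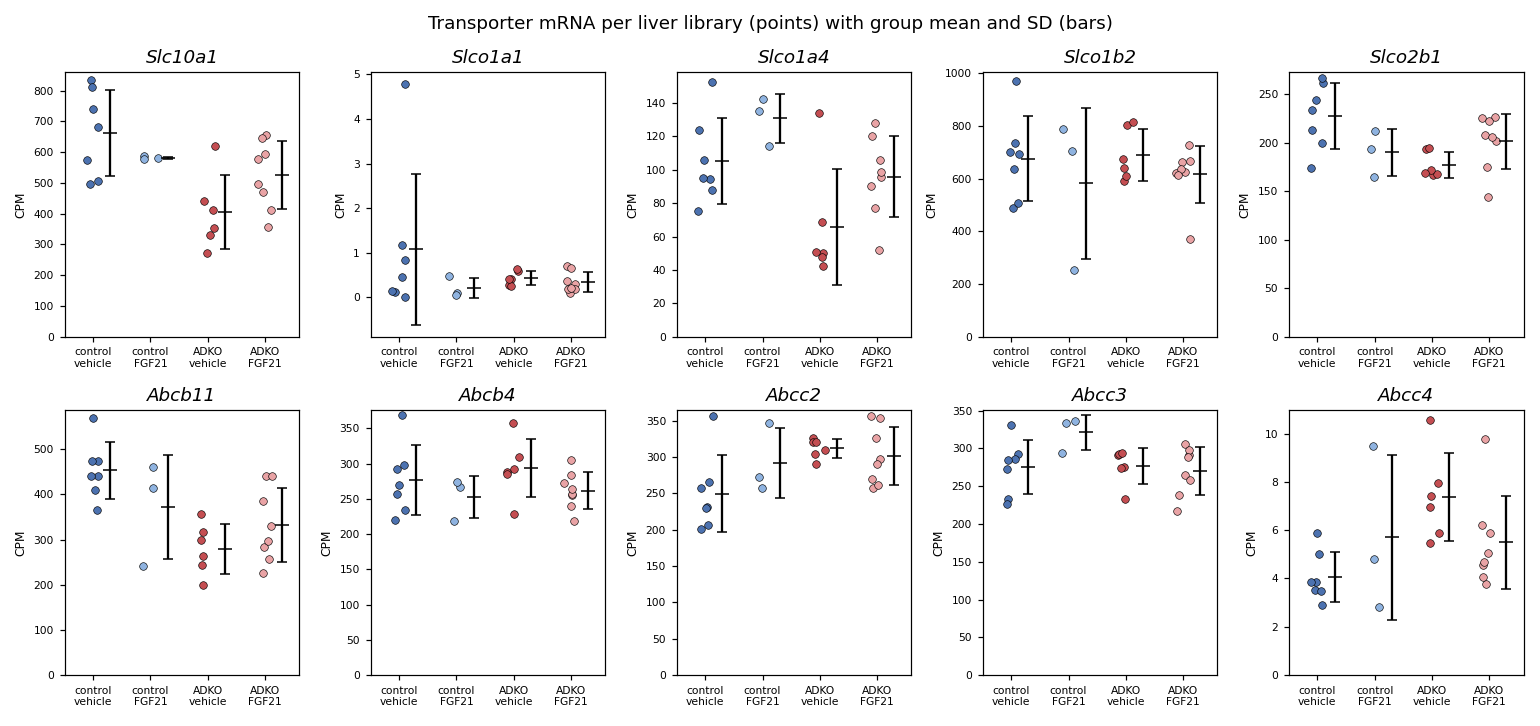
CPM of the 10 transporters in each liver library, by group, on linear axes. Points are libraries (7, 3, 6, and 8 per group) and bars are group means with SD. In vehicle-treated Lmna ADKO livers, all 6 values of Abcb11 lie below the 7 vehicle-treated controls, and 5 of 6 values of Slc10a1 do.

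In vehicle-treated mice, Lmna ADKO livers had less mRNA of the main uptake carrier and of the main canalicular exporter of bile acids, and more mRNA of a basolateral exporter. Slc10a1 and Abcb11 fell to 0.611 and 0.617 of the control level, and Abcc4 rose to 1.81 times the control level, whereas the other 7 transporters did not pass both thresholds. A gene counted as called where edgeR's quasi-likelihood test, with Benjamini-Hochberg adjustment over the 23972 genes, gave an adjusted p below 0.05 and the fold change was above 1.5. These 3 of 10 stand beside 8.48% of all genes called in this comparison, 5.12% higher and 3.36% lower. All genes include many with low counts, and after these were filtered out, 1991 of 14699 genes were called. The median log2 fold change was -0.18 over the 10 transporters and 0.0027 over all genes tested. The summed level of 6 cholangiocyte markers was 85.8 to 196 CPM in vehicle-treated Lmna ADKO livers and 27.1 to 51.2 CPM in vehicle-treated controls. Most reads of this sum in the Lmna ADKO livers were Spp1 reads. The summed level of 7 hepatocyte markers was 69861 to 104889 CPM and 79342 to 136835 CPM in the same 2 groups. The part of these differences in the transporter results was not tested.

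Slc10a1 (chr12:80953183-80968705) ranged from 496 to 833 CPM, with a median of 681, in vehicle-treated controls. The vehicle-treated Lmna ADKO livers ranged from 273 to 621 CPM, with a median of 383. Of these 6 libraries, 5 lay below every control, and ADKO vehicle 4, at 621 CPM, lay within the control range. The log2 fold change was -0.71 (standard error 0.171, adjusted p = 0.00433 from edgeR), and without ADKO vehicle 4 it was -0.88.

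Among the OATP carriers listed above as uptake carriers, none was called. Slco2a1, a further Slco gene outside that list, was called as lower and is described with the other carriers below. Slco1a4 (OATP1A4, a carrier of cardiac glycosides and bile acids that is known to be higher in female than in male mouse liver) ranged from 75.6 to 153 CPM in vehicle-treated controls, with a median of 95.1. In vehicle-treated Lmna ADKO livers its median was 50.4 CPM, with 5 of 6 libraries between 42.4 and 68.6, below every control, and ADKO vehicle 4 at 134. Its log2 fold change of -0.68 (standard error 0.235) missed the threshold (adjusted p = 0.0531 from edgeR). It was called without ADKO vehicle 4 (-1.02, adjusted p = 0.000359), without control vehicle 1 (-0.74, adjusted p = 0.0402), on filtered genes (adjusted p = 0.0301), and by DESeq2 (adjusted p = 0.018). Slco2b1 (OATP2B1, a carrier of steroid sulfates and statins) ranged from 174 to 267 CPM in vehicle-treated controls and from 166 to 195 CPM in vehicle-treated Lmna ADKO livers, with 4 of 6 below every control. Its log2 fold change of -0.36 (standard error 0.114) passed the adjusted p (0.0297 from edgeR) but not the fold threshold. Slco1b2 had a mean of 675 CPM (SD 161, n = 7) in controls against 690 CPM (SD 97.5, n = 6), with a difference of 0.03 on the log2 scale and a 95% interval from -0.36 to 0.42. Slco1a1 (OATP1A1, known to be higher in male than in female mouse liver) had 0 to 104 counts per control library, and control vehicle 4, at 4.79 CPM, was far above the other 6, which did not exceed 1.17 CPM. In vehicle-treated Lmna ADKO livers Slco1a1 ranged from 0.243 to 0.641 CPM, inside the control range. edgeR gave a log2 fold change of -1.32 (adjusted p = 0.259), which became -0.087 without control vehicle 4.

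Of the canalicular exporters listed above (Abcb11, Abcb4, and Abcc2), Abcb11 alone was called. Abcg2, a canalicular exporter outside that list, was called as higher and is described with the other carriers below. Abcb11 (chr2:69238282-69342616) ranged from 366 to 568.2 CPM, with a median of 441, in vehicle-treated controls. The Lmna ADKO livers given vehicle ranged from 200 to 355 CPM, with a median of 282. The ranges did not overlap. The log2 fold change was -0.70 (standard error 0.166, adjusted p = 0.00416 from edgeR). Abcb4 had a mean of 277 CPM (SD 49.3, n = 7) in controls against 294 CPM (SD 41.6, n = 6), a difference of 0.08 on the log2 scale with a 95% interval from -0.16 to 0.33. Abcc2 ranged from 290 to 325 CPM in Lmna ADKO livers, where 6 of 7 controls lay between 201 and 265 and control vehicle 6 at 356. A log2 fold change of 0.32 (95% interval 0.07 to 0.57, adjusted p = 0.0735 from edgeR) was not called. Antisense genes overlap Abcb11 and Slco2b1, and a gene on the same strand overlaps Abcb4. The strand setting of the counting is not stated, so reads of these partners cannot be told apart from the transporters' own.

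The basolateral exporters differed from each other in the same comparison. Abcc4 (chr14:118482692-118706219) ranged from 2.91 to 5.9 CPM, or 62 to 120 counts, in vehicle-treated controls, with a median of 3.84 CPM. In vehicle-treated Lmna ADKO livers it ranged from 5.46 to 10.6 CPM, or 118 to 247 counts, with a median of 7.17 CPM. Of these 6 libraries, 4 lay above every control, and ADKO vehicle 1 and 5 lay within the control range, below control vehicle 5. The log2 fold change was 0.85 (standard error 0.237, adjusted p = 0.0143 from edgeR), and without ADKO vehicle 6, the highest library, it was 0.72 and no longer called (adjusted p = 0.0536). Abcc3, which was expressed far above Abcc4 per length, had a mean of 275 CPM (SD 36.0, n = 7) in controls against 277 CPM (SD 23.2, n = 6), a difference of 0.0090 on the log2 scale with a 95% interval from -0.21 to 0.22.

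Animal numbers in the labels have 3 digits in 6 vehicle-treated controls and 1 vehicle-treated Lmna ADKO mouse, and 4 digits in 1 and 5. FGF21-treated controls all have 4 digits (3 of 3), and FGF21-treated Lmna ADKO mice have 3 digits in 4 and 4 digits in 4. Whether this marks a cohort is not stated. With vehicle, each series holds only 1 library of a genotype, too few for a test within it. Among 4-digit animals, the 1 control had 811 CPM of Slc10a1 against 273 to 621 CPM in the 5 Lmna ADKO livers, 568.2 against 200 to 355 CPM of Abcb11, and 3.46 against 5.46 to 10.6 CPM of Abcc4. Among 3-digit animals, the 1 Lmna ADKO liver had 331 CPM of Slc10a1 against 496 to 833 CPM in 6 controls, 299 against 366 to 475 CPM of Abcb11, and 5.88 against 2.91 to 5.9 CPM of Abcc4. With the series as a covariate, log2 fold changes were -0.88 for Slc10a1 (adjusted p = 0.00454), -0.70 for Abcb11 (adjusted p = 0.0206), and 0.85 for Abcc4 (adjusted p = 0.0761), all from edgeR, so that Abcc4 was no longer called. Without the 3 libraries whose levels fell with gene length, the same 3 transporters were called, at -0.67, -0.68, and 0.83.

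**Figure D2:**
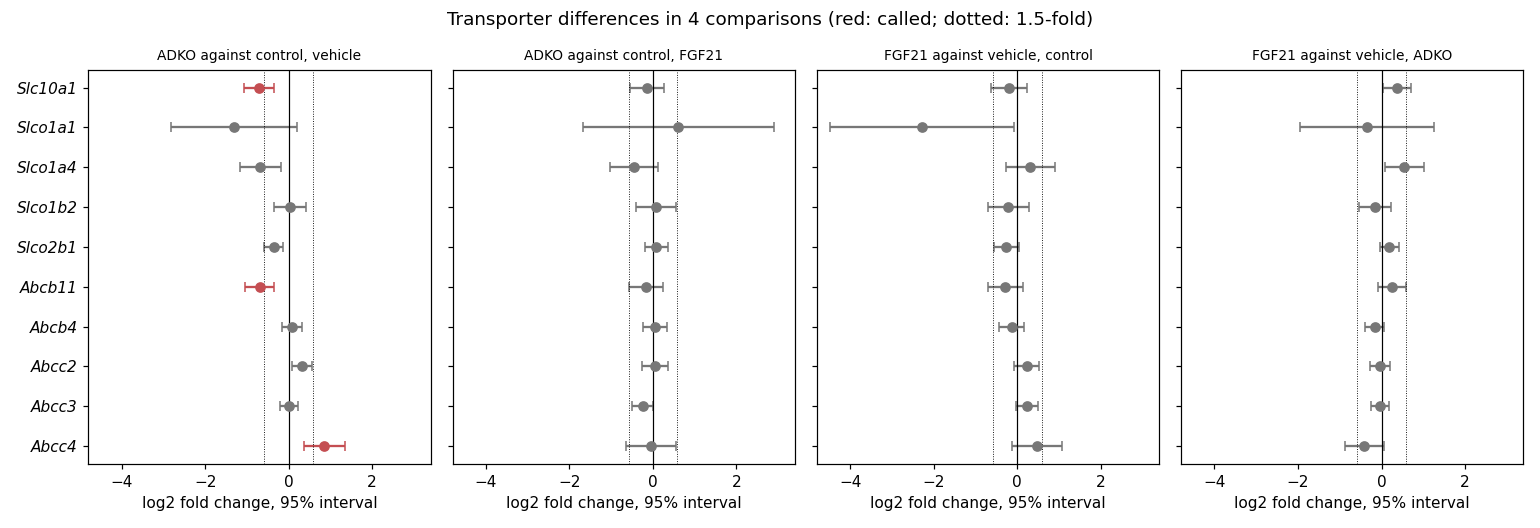
Log2 fold changes (x axis) of the 10 transporters (rows) in 4 comparisons, with 95% intervals from the edgeR fit, solid lines at 0, and dotted lines at 1.5-fold. Slc10a1, Abcb11, and Abcc4 are called, in red, in vehicle-treated Lmna ADKO against control livers, and no transporter is called in the other 3 comparisons.

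In FGF21-treated mice, 0 of 10 transporters were called between genotypes, where 2.88% of all genes were. edgeR gave an unadjusted p under 0.05 for 0 transporters, and DESeq2 for 1, Abcc3, and neither tool called any. Such a cut passes some genes without any difference. The share of all genes under it is not given here, for this or the later comparisons. Only 3 FGF21-treated controls were available, and the intervals are accordingly wide. Slc10a1 was at 577, 580, and 586 CPM in the FGF21-treated controls and ranged from 356 to 655 CPM in FGF21-treated Lmna ADKO livers, which lay on both sides of the 3 controls. The log2 fold change was -0.14, with a 95% interval from -0.56 to 0.27. Abcb11 was at 242, 414, and 461 CPM in the FGF21-treated controls, the lowest being control FGF21 3, and ranged from 227 to 441 CPM in FGF21-treated Lmna ADKO livers. Its log2 fold change was -0.16 (95% interval -0.57 to 0.24), and -0.34 without the 3 libraries whose levels fell with gene length.

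Abcc4 was at 2.8, 4.79, and 9.49 CPM in the FGF21-treated controls, the highest again in control FGF21 3, and ranged from 3.77 to 9.79 CPM in FGF21-treated Lmna ADKO livers. Its log2 fold change was -0.04 with all libraries and 0.52 without the 3 libraries (adjusted p = 0.502 from edgeR). In Slco1a4, 6 of 8 FGF21-treated Lmna ADKO livers lay below all 3 controls, which had 114, 135, and 142 CPM, and the log2 fold change was -0.45 (95% interval -1.02 to 0.12). Abcc3 was at 294, 333, and 336 CPM in the FGF21-treated controls against a median of 277 CPM in Lmna ADKO livers, of which 6 of 8 lay below every control (log2 fold change -0.25, 95% interval -0.51 to 0.01). Slco1b2 was at 254 CPM in control FGF21 3 and at 369 CPM in ADKO FGF21 7, both with levels that fell with gene length, against 703 and 788 CPM in the other FGF21-treated controls and 612 to 729 CPM in the other Lmna ADKO livers. Abcc2, Abcb4, and Slco2b1 differed by 0.05, 0.05, and 0.08 on the log2 scale between the genotypes with FGF21.

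FGF21-treated and vehicle-treated Lmna ADKO livers were compared to ask whether treatment goes with a change in these transporters. edgeR called 0 of 10, and 0% of all genes, in this comparison. An unadjusted p under 0.05 was found for 2 transporters by edgeR and for 2 by DESeq2, which called 0 of the 10. These were Slc10a1 and Slco1a4. Slc10a1 had medians of 383 CPM with vehicle and 536 CPM with FGF21, and its ranges overlapped, with 2 of 8 FGF21-treated livers above every vehicle-treated one. The log2 difference was 0.38 (95% interval 0.04 to 0.71, adjusted p = 0.704 from edgeR). Slco1a4 had medians of 50.4 and 97.1 CPM, and 7 of 8 FGF21-treated livers were above 5 of the 6 vehicle-treated ones (log2 difference 0.55, 95% interval 0.08 to 1.02, adjusted p = 0.704). Abcc4 had medians of 7.17 and 4.87 CPM, with 5 of 8 FGF21-treated livers below every vehicle-treated one (log2 difference -0.42, 95% interval -0.89 to 0.05). Abcb11 had medians of 282 and 314 CPM (log2 difference 0.25, 95% interval -0.08 to 0.58). For Abcc2 and Abcc3 the log2 differences were -0.05 (95% interval -0.29 to 0.19) and -0.03 (95% interval -0.24 to 0.17). This comparison shares the vehicle-treated Lmna ADKO livers with the genotype comparison above, so a library that is low or high there enters both.

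ADKO FGF21 3 was the lowest or highest of the 8 FGF21-treated Lmna ADKO livers in several transporters, although it lay far from the others only in Abcc4, and its Abcc2 was close to that of ADKO FGF21 5 (354 CPM). It had the lowest Slc10a1 (356 CPM), Slco1a4 (51.8 CPM), and Abcb11 (227 CPM) of the group and the highest Abcb4 (306 CPM), Abcc2 (356 CPM), and Abcc4 (9.79 CPM). It also had the highest summed level of cholangiocyte markers, 242 CPM against 50.4 to 93.4 CPM in the other 7, and the lowest of hepatocyte (69435 CPM), pericentral (6128 CPM), and periportal (3970 CPM) markers. In the vehicle-treated Lmna ADKO group, ADKO vehicle 4 had the highest Slc10a1 (621 CPM), Slco1a4 (134 CPM), Slco1b2 (816 CPM), and Slco2b1 (195 CPM) and the lowest Abcb4 (229 CPM). Its summed levels of 5 pericentral and 5 periportal hepatocyte markers, 11555 and 6800 CPM, were also the highest of that group. Whether these marker levels bear on the transporters was not tested.

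In controls, FGF21 went with no called transporter, against 0.0542% of all genes. The unadjusted p was under 0.05 for 1 transporter by edgeR and 2 by DESeq2, which called 0. The 1 was Slco1a1, at 0.0582, 0.0999, and 0.475 CPM with FGF21 and 0 to 4.79 CPM with vehicle (log2 difference -2.28, adjusted p = 0.771 from edgeR, and -1.05 without control vehicle 4). The other 9 log2 differences ran from -0.28 for Abcb11 to 0.47 for Abcc4. Without the 3 libraries whose levels fell with gene length, among them control FGF21 3, these became -0.04 for Abcb11 and -0.13 for Abcc4, and Slco1b2 went from -0.22 to 0.075. All 3 FGF21-treated controls have 4-digit animal numbers, against 1 of 7 vehicle-treated controls, so treatment and number series nearly coincide in controls. The interaction of genotype and treatment, which tests whether the treatment difference depends on genotype, was called for 0 of 10 transporters, against 0.00417% of all genes. It had an unadjusted p under 0.05 for 3 by edgeR and 4 by DESeq2, which called 0. These 3 were Slc10a1 (0.57 on the log2 scale, 95% interval 0.02 to 1.12), Slco2b1 (0.44, 95% interval 0.07 to 0.81), and Abcc4 (-0.89, 95% interval -1.65 to -0.13), each with an adjusted p of 0.984 from edgeR. The value of Abcc4 was -0.31 without the 3 libraries whose levels fell with gene length.

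Other carriers of bile acids, conjugates, and drugs also differed between vehicle-treated genotypes. Of 21 tested, 4 rose and 3 fell, and the median log2 fold change was 0.10, or -0.07 over the 19 that exceeded 3 counts in a library of each group. Beside this count, and beside the counts of the lists that follow, 5.12% of all genes were called higher and 3.36% lower in this comparison. Slc10a2 (ASBT, the sodium-dependent bile acid carrier of the ileum and of cholangiocytes) ranged from 1.12 to 5.57 CPM in controls and from 15.0 to 36.4 CPM in Lmna ADKO livers, without overlap (log2 fold change 3.22, standard error 0.311, adjusted p = 4.04e-07 from edgeR). It was also higher between FGF21-treated genotypes, at 1.81, 1.85, and 2.57 CPM in controls and 15.6 to 32.8 CPM in Lmna ADKO livers (log2 fold change 3.65). Abcg2 (BCRP, a canalicular exporter of sulfated conjugates) ranged from 17.5 to 28.0 CPM in controls and from 60.5 to 88.5 CPM in Lmna ADKO livers (log2 fold change 1.74, adjusted p = 5.41e-08). Abcb1b and Abcb1a, which encode P-glycoprotein, rose by log2 fold changes of 0.85 and 0.81, the former at only 0.496 to 1.2 CPM in Lmna ADKO livers. Abcb1a was not called with the number series as a covariate (adjusted p = 0.0903 from edgeR), and Abcb1b was not called without ADKO vehicle 3 or without ADKO vehicle 6. Slc22a7 (OAT2, a basolateral carrier of organic anions) fell by 1.42 on the log2 scale, Slco2a1 (a prostaglandin carrier) fell by 1.12, and Abcc6 (known for its part in pyrophosphate release) fell by 0.64. Slc51a and Slc51b, the subunits of the basolateral bile acid carrier OST, had log2 fold changes of -0.41 and 0.75 at 1.71 CPM or less and were not called. With FGF21, 3 of the 21 were called as higher in Lmna ADKO livers (Slc10a2, Abcg2, and Abcb1a) and 1 as lower (Slco2a1). In that comparison 2.88% of all genes were called. Abcb1a was called in 7 of 18 alternatives and Slco2a1 in 13 of 18.

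Of the 16 nuclear receptors and factors that control transporter genes, 0 rose and 3 fell between vehicle-treated genotypes, with a median log2 fold change of -0.12. Nr1i3 (CAR) ranged from 258 to 624.9 CPM in controls and from 163 to 343 CPM in Lmna ADKO livers (log2 fold change -1.004, adjusted p = 0.00157 from edgeR). Foxa2, a hepatocyte transcription factor, fell by 0.80 on the log2 scale and was called in 18 of 20 alternatives, but not with the number series as a covariate or without the 3 libraries whose levels fell with gene length (adjusted p up to 0.0567 from edgeR). Nr1h4 (FXR) had a log2 fold change of -0.08, Nr0b2 (SHP, an FXR target and repressor of bile acid synthesis) of 0.22, and Nfe2l2 of 0.23, and none of the 3 was called. With FGF21, Nr1i3 was the 1 factor of the 16 called (log2 fold change -1.30), beside 2.88% of all genes. It was not called without the 3 libraries whose levels fell with gene length (adjusted p = 0.0713 from edgeR). Of 11 genes of bile acid synthesis and conjugation, 0 rose and 2 fell with vehicle, Cyp2c70 (which makes muricholic acids) by 1.13 and Slc27a5 (a bile acid CoA ligase) by 0.75 on the log2 scale, with a median of -0.37. Cyp7a1, the rate-limiting enzyme of bile acid synthesis, ranged from 9.37 to 205 CPM in controls and from 23.5 to 103 CPM in Lmna ADKO livers and was not called (log2 fold change -1.01, adjusted p = 0.24 from edgeR). The receptor pair for FGF15, Fgfr4 and Klb, had log2 fold changes of -0.33 and -0.26, and neither was called. Of the 2, 1 had an unadjusted p under 0.05 from edgeR. The study's paper describes Fgfr4 as decreased in these livers, the same direction, without giving a fold change.

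Targets of CAR and PXR were called in both directions, and targets of NRF2 as higher. Of 8 CAR and PXR targets, 2 rose and 2 fell with vehicle. Cyp2c55 and Cyp3a11 rose by log2 fold changes of 1.20 and 0.67, and Cyp2a5 and Ugt1a1 fell by 1.07 and 0.65 on the log2 scale. Cyp3a11 was called in 15 of 20 alternatives, Cyp2a5 in 10 of 20, and Ugt1a1 in 19 of 20, the exception being without control vehicle 6. Of 10 NRF2 targets, 5 rose and 0 fell, with a median log2 fold change of 0.43. Nqo1, a quinone reductase, ranged from 7.08 to 11.2 CPM in controls and from 13.9 to 18.5 CPM in Lmna ADKO livers (log2 fold change 0.84), and Srxn1, which reduces peroxiredoxins, from 35.8 to 57.1 CPM and from 75.6 to 115 CPM (log2 fold change 1.13). Gclc, a subunit of the enzyme that limits glutathione synthesis, rose by 0.88, and Gsta1 had a median of 0.454 CPM in controls and 16.2 CPM in Lmna ADKO livers. Gstm1, the fifth, was called in 10 of 20 alternatives. Of 9 scaffold and trafficking proteins of transporters, 1 rose and 0 fell, beside 8.48% of all genes called. The 1 was Stx3 (log2 fold change 0.60), called in 18 of 20 alternatives but not without control vehicle 5 or ADKO vehicle 3. Pdzk1 and Rdx, which tether transporters at the membrane, had log2 fold changes of 0.09 and -0.23 and were not called. Between FGF21-treated genotypes, Cyp2c55 (log2 fold change 2.67), Nqo1 (0.61), and Srxn1 (0.81) were called as higher in Lmna ADKO livers. Ugt1a1 (-0.65) was called as lower there, beside 2.88% of all genes called. Of these 4, Ugt1a1 was called in 8 of 18 alternatives, Nqo1 in 12, Srxn1 in 14, and Cyp2c55 in 18. Between FGF21 and vehicle, edgeR called 0 of the 143 genes of all lists, marker lists included, in either genotype. In controls 15 had an unadjusted p under 0.05 and DESeq2 called 1, and in Lmna ADKO livers 19 had one and DESeq2 called 2. Without the share of all genes at this unadjusted cut, these counts do not show a difference with FGF21.

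**Figure D3:**
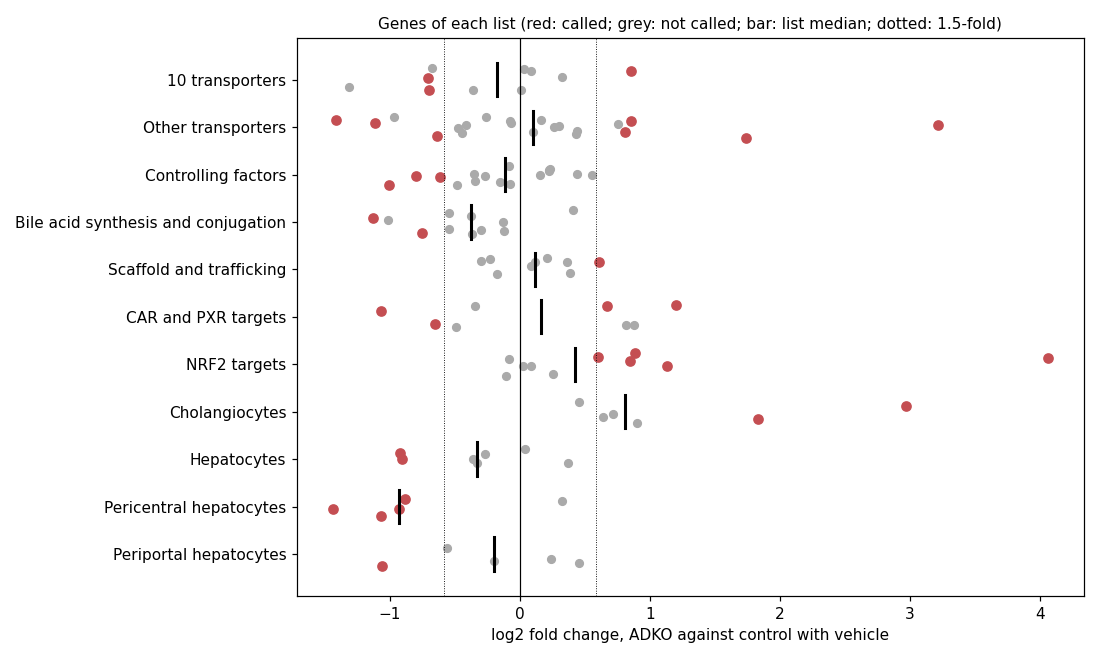
Log2 fold changes of vehicle-treated Lmna ADKO against control livers (x axis) for each gene of the 11 lists named on the rows. The FGF15 receptor, sex-biased, stellate cell, macrophage, endothelial, and lymphocyte lists are left out. Called genes are in red, others in grey, and black bars mark list medians. Among the genes plotted, Gsta1, at 4.06, and Slc10a2, at 3.22, lie farthest to the right, and the 10 transporters lie on both sides of 0.

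Markers of other liver cells and of zones were read beside these results. With vehicle, 2 of 6 cholangiocyte markers rose, Spp1 (log2 fold change 1.83) and Cftr, which had 0 or 1 count in every control library and at most 8 counts in a Lmna ADKO library. Cftr was not called without ADKO vehicle 3 (adjusted p = 0.0539 from edgeR). All 6 had positive log2 fold changes, and Krt19 and Krt7, the defining keratins, were at 1.44 to 2.18 CPM and 0.586 to 1.62 CPM in Lmna ADKO livers and at 0.681 to 1.33 CPM and 0.318 to 0.877 CPM in controls. Slc10a2 thus rose in livers in which the summed cholangiocyte markers, most of them Spp1 reads, were also higher, and the part of these cells was not tested. Of 5 pericentral markers, 4 fell (Cyp1a2, Oat, Rgn, and Cyp2e1), and Glul, the other one, had a log2 fold change of 0.32 and was not called. Of 5 periportal markers, 1 fell (Hal). Of 7 hepatocyte markers, 2 fell (Cps1 and Serpina1c), and of 6 stellate cell markers, 2 rose (Acta2 and Lrat). Of 5 sinusoidal endothelial markers, 1 rose (Lyve1), but 3 had negative log2 fold changes, and the list median was -0.27. Among 6 macrophage and 6 lymphocyte markers, edgeR called 0 and 0, with an unadjusted p under 0.05 for 3 and 3, and DESeq2 called 0 and 1. Slco1a1 and Slco1a4 are known to differ between the sexes, and of 12 genes known as female-biased in liver, 10 fell in these female mice and 0 rose, whereas of 10 male-biased genes, 4 rose and 0 fell. With the number series as a covariate, the male-biased Elovl3 (adjusted p = 0.0513 from edgeR) and Mup20 (adjusted p = 0.062) were no longer called, and Hao2, among the 10 female-biased genes, was called in only 7 of 20 alternatives. Cyp2d9, a male-biased hydroxylase, ranged from 22.5 to 54.5 CPM in controls and from 161 to 324 CPM in Lmna ADKO livers. With FGF21, 4 female-biased genes were called as lower and 2 male-biased genes as higher in Lmna ADKO livers. In this comparison 2.88% of all genes were called. Cyp4a12a was called in 12 of 18 alternatives and Cyp2b9 in 17 of 18. Cyp4a12a had 3 counts or fewer in every FGF21-treated control. The median log2 fold change of the male-biased genes was 2.36, or 0.11 over the 7 that exceeded 3 counts in a library of both groups. In the same comparison, 3 of 5 pericentral markers (Cyp1a2, Oat, and Cyp2e1) were called as lower and Lyve1 as higher (log2 fold change 1.49). Of these called markers, Cyp2e1 was called in 9 of 18 alternatives and Oat in 14. Among the 5 sinusoidal endothelial markers, 4 had negative log2 fold changes there, with a list median of -0.12.

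Across the 24 libraries, the genes whose log2 CPM most resembled those of the called transporters were searched among the 12492 genes whose log2 CPM averaged 0 or more. For Slc10a1 they included Proz (Pearson's r = 0.909) and Urad (0.891). For Abcb11 they were 0610030E20Rik (0.883), Ncald (0.880), and Wrnip1 (0.877), and for Abcc4 Aaas (0.834), Rab3d (0.825), and Ctsk (0.819). These correlations are descriptions over libraries of 4 groups that differ in genotype, and genes that differ with genotype share that difference.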

How the data were processed

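Libraries were polyA-selected and strand-specific, and the authors deposited counts of reads per gene, without normalization, for 23972 genes in 24 libraries. The methods name Ensembl annotation and the removal of genes at 0 in every sample, and the submitters' processing notes list GRCm38, cutadapt 4.8, STAR 2.7.8a, and RSEM 1.3.3 without saying which gave the counts. The deposited counts, TMM-scaled, went into edgeR 4.0.16 (R 4.3.3, robust quasi-likelihood test) as 1 model of all 4 groups, without covariates or a filter, and p-values were adjusted by Benjamini-Hochberg over all genes. Calls needed an adjusted p below 0.05 and a fold change over 1.5, and 95% intervals use the t distribution of that fit. The authors used DESeq2 (here 1.42.0, as an alternative). Log2 CPM use a prior count of 2. The 67 within-group pairs of libraries gave a chi-square per degree of freedom of 14.1 to 196, so no library was taken as a duplicate. Libraries are numbered within groups by ascending animal number. Locations come from GENCODE M21, which holds 23926 of the genes, and promoters from RefSeq. The script was tested on simulated data. The transporters, the gene lists, and the alternatives on the 3 libraries were chosen with earlier results of these data known. All 10 transporters are described and every list member is counted. The rule named, per list and comparison, up to 4 called genes with the largest log2 fold change and any gene a result turns on, and further list genes (such as Abcb1b, Abcb1a, Abcc6, Gstm1, Pdzk1, Rdx, Slc51a, and Slc51b) were named after their values were seen. For each called transporter, the 3 genes with the highest Pearson's r were found. Some of the genes and motifs so found or searched are not reported here. Slco1a5 and the hepatocyte gene Tf were not analysed here. 0 columns of values lacked a sample.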

Additional observations from a re-analysis of the deposited data

Results flagged for a closer look

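In 30 groups of 6 to 8 libraries (10 transporters in 3 groups, since FGF21-treated controls were too few), Dixon's test at the 95% level found 6 libraries far from the others of their group, where chance gives about 1 in 20 groups. Control vehicle 4 had 4.79 CPM of Slco1a1, far above the other vehicle-treated controls. Control vehicle 6 had 356 CPM of Abcc2, above its group. ADKO vehicle 4 had 134 CPM of Slco1a4, above its group, and ADKO vehicle 6 had 233 CPM of Abcc3, below its group. ADKO FGF21 3 had 9.79 CPM of Abcc4, above its group, and ADKO FGF21 7, a library whose levels fell with gene length, had 369 CPM of Slco1b2, below its group.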

How the results depend on the processing

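The number of transporters called stayed within 1.5 times the reported one in every alternative run, at 2 to 4 in vehicle-treated Lmna ADKO against control livers and 0 in the other comparisons. Slc10a1 and Abcb11 were called in 20 of 20 alternatives (log2 fold changes -0.88 to -0.62 and -0.78 to -0.62), Abcc4 in 18 of 20 (0.72 to 0.96, adjusted p 0.000628 to 0.0761), and Slco1a4 in 4 of 20. No transporter changed its direction while called. A covariate for each library's length slope was chosen after seeing the data. No paired analysis was possible because the animal numbers in the labels differ between groups. Counts over all genes moved more. Between FGF21-treated genotypes, 690 genes were called with all libraries, 344 with only those groups, 402 without the 3 libraries whose levels fell with gene length, 416 without control FGF21 2, 339 without control FGF21 3, and 1149 without ADKO FGF21 7. For FGF21 in controls the count was 13, against 38 by DESeq2, 0 with the number series, and 3 to 26 when a library was left out. For FGF21 in Lmna ADKO livers it was 0, against 15 by DESeq2 and 61 without ADKO FGF21 3. For the interaction it was 1, against 11 by DESeq2 and 0 to 5 in the other alternatives. The cause was not tested. Depth limits Slco1a1, which had 3 counts or fewer in some libraries.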
